A study of Mus musculus with 10 samples.

Results

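The interferon-inducible GTPases examined here are 10 genes taken by name from the 46956 loci with a gene symbol: the guanylate-binding proteins Gbp2, Gbp3, Gbp4, Gbp5 and Gbp7, and the immunity-related GTPases Irgm1, Irgm2, Igtp, Iigp1 and Tgtp2. The 10 genes sit in 9 loci, because Igtp and Irgm2 share a locus. The Gbp4 locus also lists Gbp8 and Gbp9, and the Gbp7 locus also lists Gm43802, so these values cover all the genes named. RNA was sequenced from macrophages of 4T1 tumours, a mouse mammary carcinoma line implanted under the skin into the mammary fat pad, in BALB/cJ mice. Sorted cells were live by 7AAD, carried CD45, CD11b and F4/80, and lacked CD8, Ly6C and Ly6G. Control mice (5 samples) received PBS vehicle and treated mice (5 samples) received JHU083, a prodrug of a glutamine antagonist, at 1 mg/kg from day 7 to day 13. All tumours were harvested and sorted on day 14. The age and sex of the mice are not in the labels. They also do not say whether a sample is 1 mouse or a pool, so the p-values measure the spread between these samples.

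Libraries held 11147870 to 15740700 fragments, and the JHU083 libraries were deeper (14617559 ± 778228) than the vehicle libraries (12744916 ± 1254059; SD, n = 5 each). Each of the 9 loci had between 99 fragments (Tgtp2 in JHU083 sample 3) and 2628 fragments (Gbp7 in JHU083 sample 2). Summed macrophage markers lay at 10942.7 to 12577.7 CPM in vehicle and 14771.5 to 19773.4 CPM in JHU083, with Lyz2 the largest part (means of 6979.5 and 10458.1 CPM). Of the 8 markers 5 were higher (edgeR adjusted p under 0.05), led by Mertk (log2 fold change 0.97), Adgre1 (F4/80, 0.63) and Lyz2 (0.58), and Itgam (0.03), Cd68 (0.16) and Ptprc (0.3) did not pass. CPM here is a locus's fragment count scaled to a common library total, with library sizes adjusted by TMM (the trimmed mean of M values). A ribosomal RNA locus, Rn18s-rs5, was at 0 in 3 vehicle samples and in 2 JHU083 samples, and it held 2.38% to 4.64% of fragments in the others. JHU083 sample 3 had the lowest quality weight of the 10 samples, 0.29.

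Interferon-inducible GTPases are among the genes that macrophages switch on most strongly when interferon gamma binds its receptor and signals to the nucleus, where the transcription factor IRF1 takes part. Guanylate-binding proteins assemble on vacuoles of microbes and on bacteria in the cytosol, where they help to break the membrane and to start inflammasome signalling. The immunity-related GTPases fall into effectors, such as Iigp1 and Tgtp2, which coat foreign vacuoles, and the regulatory IRGM proteins Irgm1, Irgm2 and Igtp, which sit on the cell's own membranes and keep the effectors inactive there.

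Transcripts of the GTPases were lower in macrophages from JHU083-treated mice at 8 of the 9 loci, and at none were they higher (edgeR's quasi-likelihood test, Benjamini-Hochberg adjusted p under 0.05 over all 12500 loci tested). Among all tested loci 18.3% were lower and 18.4% were higher by this rule. The median log2 fold change of JHU083 over vehicle was -0.6 over the 9 loci and 0.01 over all loci. Gbp2, Iigp1, Tgtp2 and the Igtp/Irgm2 locus showed the larger decreases, of 47.3% to 52.5%. Decreases were smaller at Gbp4, Irgm1, Gbp5 and Gbp3, from 24.1% to 33.8%. Gbp7 was the exception, with a log2 fold change of 0.13 that did not pass the test. At 6 loci every JHU083 sample lay below every vehicle sample in CPM, which held for 11.1% of all tested loci. In bulk RNA such as this, fewer cells that express a gene and less of its RNA per cell cannot be told apart.

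**Figure D1:**
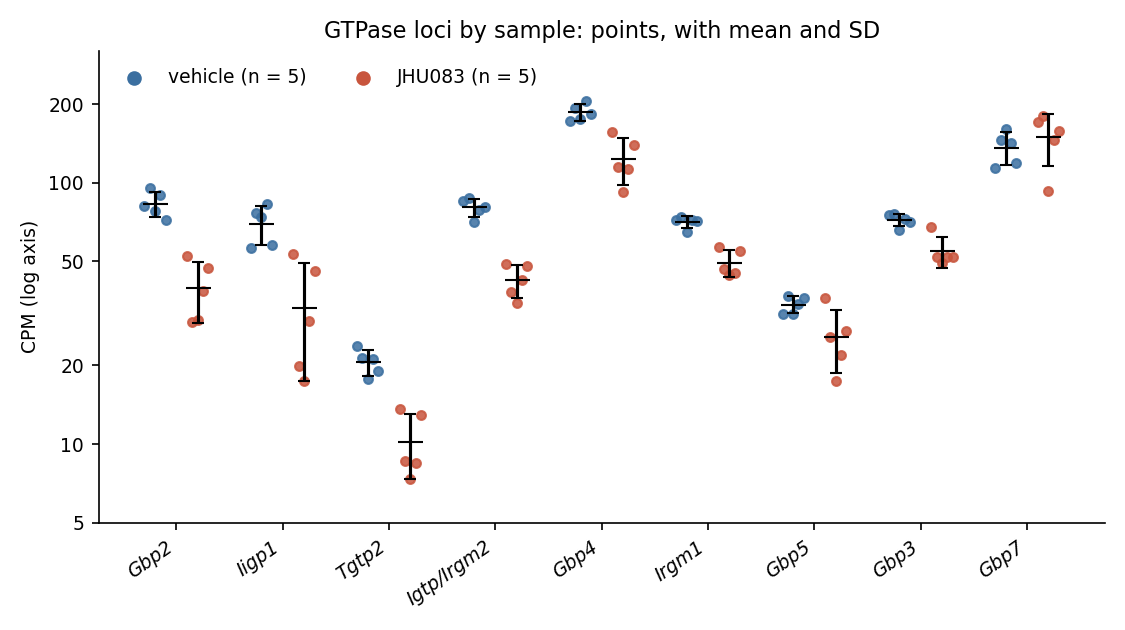
CPM (log axis) of the 9 loci in each of the 5 vehicle and 5 JHU083 samples, as points, with the group mean and SD in black, ordered by fold change. Gbp2, Iigp1, Tgtp2, Igtp/Irgm2, Gbp4 and Irgm1 show no overlap between groups, and Gbp7 overlaps throughout.

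Promoters are shown because interferon reaches these genes through short known DNA sites, and because genes that fell and the gene that did not can be read side by side. Of the 10 genes, all but Gbp4 and Iigp1 had an entry in the RefSeq promoter table (GRCm38.p6), which covers 250 bases before to 50 bases after each gene's start. The interferon-stimulated response element (ISRE) core, bound by IRF factors, was searched as GAAA, any 2 bases, and GAAA again. The gamma-activated site (GAS), a site of the interferon gamma response, was searched as TTCNNNGAA. Both strands were searched, and overlapping matches were kept. The stretches of 80 bases below are written 5′ to 3′ on the strand of the gene, and capitals mark the bases of a match to either site. In the guanylate-binding protein genes the ISRE core reads as its reverse complement.
Gbp2 (chr3:142620569-142620648, plus strand): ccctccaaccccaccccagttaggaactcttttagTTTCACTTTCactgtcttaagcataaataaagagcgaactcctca
Gbp3 (chr3:142559964-142560043, plus strand): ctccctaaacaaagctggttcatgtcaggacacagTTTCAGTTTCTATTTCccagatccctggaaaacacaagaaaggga
Gbp5 (chr3:142496734-142496813, plus strand): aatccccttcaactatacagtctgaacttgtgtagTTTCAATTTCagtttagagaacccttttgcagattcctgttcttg
Gbp7 (chr3:142530248-142530327, plus strand): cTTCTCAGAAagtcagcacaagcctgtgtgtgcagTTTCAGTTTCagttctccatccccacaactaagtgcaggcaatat
Irgm1 (chr11:48871421-48871500, minus strand): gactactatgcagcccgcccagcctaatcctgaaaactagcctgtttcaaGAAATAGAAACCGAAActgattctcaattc
Irgm2 (chr11:58214878-58214957, plus strand): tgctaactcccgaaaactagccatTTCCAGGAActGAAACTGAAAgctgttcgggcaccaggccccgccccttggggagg
Igtp (chr11:58199476-58199555, plus strand): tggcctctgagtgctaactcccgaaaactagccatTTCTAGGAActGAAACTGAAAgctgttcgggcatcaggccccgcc
Tgtp2 (chr11:49064238-49064317, minus strand): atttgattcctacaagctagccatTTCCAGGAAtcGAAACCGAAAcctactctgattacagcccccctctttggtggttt

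All 8 genes with a promoter entry held an ISRE core, against 3.99% of all genes in the table (3.44% of its 32851 windows). A GAS lay in 5 of them (Gbp5, Gbp7, Igtp, Irgm2 and Tgtp2), against 9.55% of all genes (8.3% of windows). In Igtp, Irgm2 and Tgtp2 the GAS stands just before the ISRE core, with its first base at 45, 75 and 81 bases before the start and that of the ISRE core at 34, 64 and 70. Gbp3 and Irgm1 each hold 2 overlapping ISRE cores, and the 2 GAS matches of Gbp5, at 245 and 52 bases before its start, lie outside the stretch shown. Gbp7, which did not fall, holds 2 GAS matches and an ISRE core, at 106, 87 and 53 bases before its start, the first of them outside the stretch shown. The same repeat with any 3 bases between its parts was found in 0 of the 8 and in 3.17% of all genes (2.75% of windows). A match is a description of these letters and does not show that a factor was bound.

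**Figure D2:**
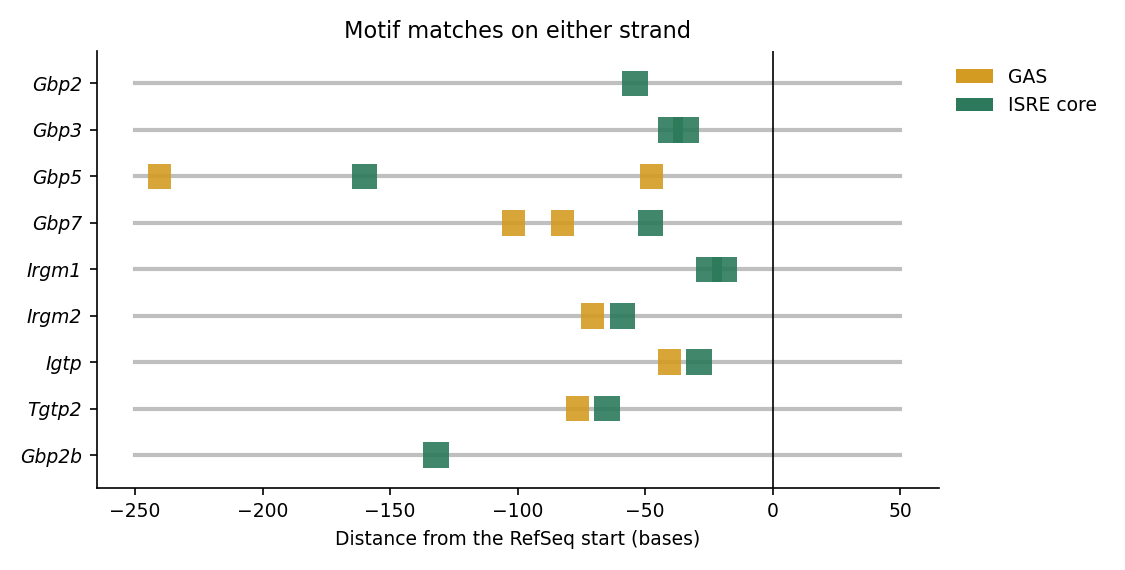
Positions of GAS (yellow) and ISRE core (green) matches on either strand, in bases from the RefSeq start (line at 0), in windows of 8 of the GTPase genes and of their relative Gbp2b (1 window a gene; a further Gbp3 window without a match is not drawn). Each window holds an ISRE core, and Igtp, Irgm2 and Tgtp2 share the GAS and ISRE arrangement.

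Gbp2, a guanylate-binding protein that is recruited to parasite vacuoles and bacteria, was among the loci with the larger decreases. The gene lies on chromosome 3 from 142620602 to 142638008 (GRCm38, plus strand, protein coding), and the microRNA gene Mir6381 overlaps its exons on the other strand. Its levels were 81.2, 95.2, 78.1, 89.7 and 71.9 CPM in vehicle samples 1 to 5 and 52.6, 29.4, 29.9, 38.4 and 47.3 CPM in JHU083 samples 1 to 5. The groups did not overlap, and JHU083 samples 1 and 5 were the highest of the treated group. The log2 fold change was -1.07 ± 0.15 (SE; 95% interval -1.4 to -0.75; edgeR adjusted p = 0.000123).

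Gbp4 had the highest CPM of the loci in vehicle. Its gene on chromosome 5 (105115767 to 105139586, minus strand) overlaps exons of Gbp8 and Gbp9, so the value belongs to the 3 genes together. The locus was at 172.6, 192.4, 176.1, 206.0 and 183.8 CPM in vehicle and at 156.4, 114.9, 92.1, 113.0 and 139.1 CPM in JHU083. Without overlap between the groups, it fell by 0.6 on the log2 scale (SE 0.12, edgeR adjusted p = 0.00154).

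Gbp3 and Gbp5, both on chromosome 3 (142560026 to 142573209 and 142493978 to 142522344), changed less. Gbp5 is known for promoting NLRP3 inflammasome assembly. Vehicle samples had 75.1, 76.2, 65.9, 72.6 and 70.8 CPM of Gbp3, and JHU083 samples had 68.0, 52.0, 49.2, 52.2 and 52.2 CPM. JHU083 sample 1 lay within the vehicle range and the other 4 lay below it. The log2 fold change of Gbp3 was -0.4 ± 0.09 (SE, edgeR adjusted p = 0.00415).

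For Gbp5 the vehicle samples had 31.6, 37.0, 31.6, 34.5 and 36.4 CPM and the JHU083 samples 36.1, 25.6, 17.4, 21.9 and 27.0 CPM. Again JHU083 sample 1 alone reached the vehicle range. The log2 fold change was -0.42 ± 0.15 (SE, edgeR adjusted p = 0.0426), which is close to the threshold. It no longer passed when vehicle replicate 1, 2, 4 or 5 or JHU083 replicate 2, 3, 4 or 5 was left out, with log2 fold changes of -0.44 to -0.30 and adjusted p of 0.0545 to 0.105.

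The effectors Iigp1 and Tgtp2, which load onto parasite and bacterial vacuoles, were both lower. Iigp1 lies on chromosome 18 (60376027 to 60392634, plus strand). It was at 56.2, 76.3, 74.0, 83.1 and 57.9 CPM in vehicle and at 53.3, 19.9, 17.5, 29.7 and 46.0 CPM in JHU083. The groups met closely, since JHU083 sample 1 was just below the lowest vehicle sample, while samples 2 and 3 were far below. The resulting log2 fold change was -1.06 ± 0.26 (SE; 95% interval -1.61 to -0.51; edgeR adjusted p = 0.00562), with the largest error of the 9 loci.

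Tgtp2, on chromosome 11 (49057194 to 49064206, minus strand), was the least abundant of the 9 loci in CPM. Its vehicle samples had 23.8, 21.4, 17.7, 21.2 and 19.0 CPM and its JHU083 samples 13.6, 8.64, 7.38, 8.49 and 12.9 CPM. All treated samples were below all controls, with a log2 fold change of -1.01 ± 0.16 (SE, edgeR adjusted p = 0.000343). Tgtp1 is a near-identical copy, so fragments could have been split between the pair in the authors' counting.

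Among the regulatory IRGM proteins, the locus of Igtp and Irgm2 fell more than Irgm1. Igtp (chromosome 11, 58199556 to 58207591) and Irgm2 (58199618 to 58222782) overlap on the plus strand, and their shares cannot be read from these values. Together they were at 85.1, 87.6, 71.0, 78.9 and 80.7 CPM in vehicle and at 49.0, 38.2, 34.6, 42.4 and 48.1 CPM in JHU083. The lowest control was well above the highest treated sample. At -0.92 ± 0.1 (SE, log2; edgeR adjusted p = 1.77e-05), this decrease had the smallest p of the 9 loci.

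Irgm1 (chromosome 11, 48861968 to 48871683, minus strand) is a regulator whose loss leaves mice open to intracellular infection. Control samples had 72.2, 73.7, 64.6, 72.2 and 71.4 CPM and JHU083 samples 56.9, 46.7, 44.4, 45.0 and 54.7 CPM. The groups were separate, and the log2 fold change was -0.52 ± 0.09 (SE, edgeR adjusted p = 0.000463).

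Gbp7 (chromosome 3, 142530342 to 142550149, plus strand), a guanylate-binding protein linked to defence of macrophages against intracellular bacteria, did not fall. It was at 114.4, 145.9, 160.5, 142.3 and 118.9 CPM in vehicle and at 170.6, 180.1, 93.3, 145.7 and 158.0 CPM in JHU083. JHU083 sample 3 was the lowest of all 10 samples and samples 1 and 2 were the highest. The log2 fold change was 0.13 ± 0.15 (SE; 95% interval -0.19 to 0.45; edgeR adjusted p = 0.509). Without JHU083 replicate 3 it was 0.27 with an adjusted p of 0.0435, a call of higher.

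Ratios between loci within a library do not depend on scaling between libraries, and they were compared between groups for all 36 pairs of the 9 loci. This comparison was chosen after the values were seen. All 36 ratios come from the same 9 loci and largely restate the differences between their fold changes. The share of differing ratios among pairs of other loci was not computed. By an exact two-sided permutation test, 20 of the 36 ratios differed between the groups at a Benjamini-Hochberg adjusted p under 0.05. The smallest p that 5 against 5 samples allow is 0.0079, which is 0.0168 after adjustment. Gbp7 shifted against 7 of the 8 other loci, by 0.57 to 1.29 on the log2 scale. Against Gbp3 its shift was 0.51, with an exact adjusted p of 0.0649. The log2 ratio of Gbp2, which lies near it on chromosome 3, to Gbp7 moved from -0.71 ± 0.2 to -1.92 ± 0.4 (SD, n = 5), with no overlap between groups (exact adjusted p = 0.0168).

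Some ratios among the loci that fell shifted too. Irgm1 rose relative to Igtp/Irgm2 by 0.41 on the log2 scale, from -0.19 ± 0.06 to 0.23 ± 0.1 (SD, n = 5, exact adjusted p = 0.0168). Gbp2 fell relative to Gbp3, Gbp4, Gbp5 and Irgm1, by 0.7, 0.49, 0.65 and 0.58 (exact adjusted p = 0.0168 each). Of the 16 ratios between loci with larger and loci with smaller decreases, 13 passed. For Iigp1, the most variable locus, the ratio to Gbp5 differed (0.72, exact adjusted p = 0.0286), and those to Gbp3, Gbp4 and Irgm1 did not pass (exact adjusted p of 0.0649 to 0.0714). Between Gbp2, Iigp1, Tgtp2 and Igtp/Irgm2 the ratios differed by 0.06 to 0.25 between the groups, and the smallest exact adjusted p was 0.194. Those between Gbp3, Gbp4, Gbp5 and Irgm1 differed by 0.05 to 0.21, with exact adjusted p of 0.0879 or more. With these errors, loci with decreases of like size could not be ranked. The groups of like size were set by the same fold changes, so small shifts within them were built in.

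The GTPases also varied together among the treated samples. JHU083 sample 1 was the highest of its group at all 8 loci other than Gbp7, and sample 5 was in the top 2 at 7 of them. Lowest in its group at 7 of the 8 was JHU083 sample 3, the library with the lowest quality weight. In the controls, vehicle sample 2 was in the top 2 at all 8 loci and vehicle sample 3 was the lowest at 5. After the group mean was subtracted from log2 CPM, the mean Pearson correlation over the 10 samples was 0.81 for the 28 pairs without Gbp7 (0.61 to 0.95). For Gbp7 with the others it was 0.47. The 28 pairs averaged 0.88 (0.68 to 0.99) within the 5 JHU083 samples alone and 0.43 (-0.28 to 0.97) within the 5 vehicle samples, and Gbp7 with the others 0.61 and -0.07. These are descriptions, since the loci share their libraries and depths.

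**Figure D3:**
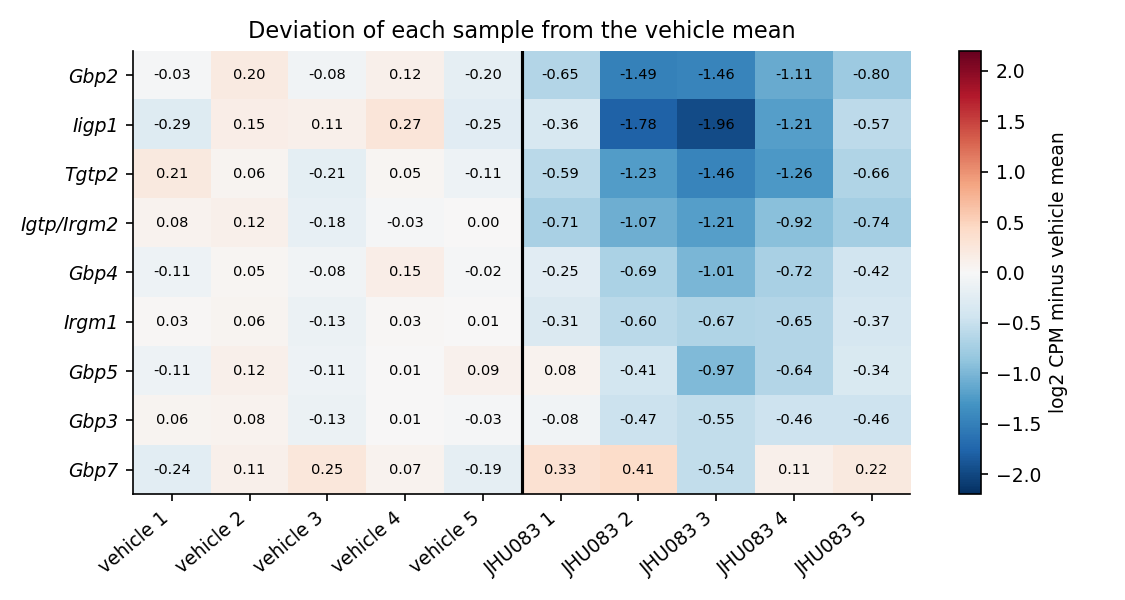
Log2 CPM of each locus (rows) in each sample (columns) minus the vehicle mean of that locus, with the value printed in each cell; blue is lower and red is higher, and the line separates vehicle from JHU083. JHU083 samples 2, 3 and 4 are the darkest blue from Gbp2 down to Igtp/Irgm2, and only the Gbp7 row holds red cells in most JHU083 samples.

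Outside the 10 genes, the loci whose deviations were most like theirs over the 10 samples began with another family member. Gbp2b had a mean correlation of 0.85 with the 9 loci, and the locus of Gbp6 and Gbp10 was seventh with 0.79. The other loci of the leading 8 were Map9 (0.82), Sema4b (0.82), Nfe2l2 (0.81), Bbs10 (0.8), Cers6 (0.8) and Gm12346 (0.79). Their changes with treatment went in both directions: Sema4b fell by 0.89 on the log2 scale (SE 0.12, edgeR adjusted p = 6.71e-05), and Nfe2l2 rose by 0.33 (SE 0.08, edgeR adjusted p = 0.00551). Map9 rose by 1.21 on that scale from 0.687 CPM (SE 0.31, edgeR adjusted p = 0.00715). The log2 fold changes of Bbs10 (0.03), Cers6 (-0.08) and Gm12346 (-0.17) did not pass, with edgeR adjusted p of 0.946, 0.529 and 0.684.

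Levels of different genes can be set side by side only per length, as in the deposited FPKM. In vehicle, Gbp4 was the highest at 51.2 ± 4.16 FPKM, above every sample of the other loci. Irgm1 (36.7 ± 1.47), Igtp/Irgm2 (36.1 ± 3.42), Gbp2 (33.6 ± 4.03), Gbp3 (30.5 ± 2.34), Gbp7 (29.7 ± 4.57) and Iigp1 (23.4 ± 4.01) followed, each overlapping its neighbours in this order (FPKM, SD, n = 5). Tgtp2 (12.4 ± 3.36 FPKM) and Gbp5 (10.9 ± 0.647 FPKM) were the lowest and overlapped each other.

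In JHU083 the order changed at the top. Gbp7 led with 38.5 ± 9.1 FPKM, overlapping Gbp4 at 37.0 ± 7.63 FPKM. Gbp2 was sixth at 15.8 ± 4.18 FPKM, and Tgtp2 was the lowest at 7.36 ± 3.7 FPKM. Unlike in CPM, the groups overlapped in FPKM at Gbp4 (vehicle from 46.3, JHU083 up to 46.4). They also overlapped at Tgtp2 (vehicle from 7.84, JHU083 up to 12.3 FPKM). The order depends on the lengths used. By CPM per kilobase of GENCODE exons Gbp2 was the highest in vehicle (33.1) and Gbp4, whose locus spans exons of 3 genes, was seventh (11.6). Gbp7 was the highest in JHU083 on that scale too, at 26.6 CPM per kilobase.

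In the wider family, too, most tested loci were lower and a few were not. Beyond the 9 loci, 19 further genes were listed as relatives, which occupy 15 additional loci and the Gbp4 locus. Whether each of them responds to interferon was not tested. Of the 14 of these loci that could be tested, 9 were lower, 2 were higher and 3 did not pass, with a median log2 fold change of -0.55. Gbp2b, the gene next to Gbp2, fell from 106.2 ± 10.5 to 38.7 ± 15.3 CPM (SD, n = 5), a point estimate beyond those of the 10 genes (log2 fold change -1.45 ± 0.2, SE, edgeR adjusted p = 0.000108). Its vehicle samples spanned 93.3 to 120.0 CPM and its JHU083 samples 23.9 to 61.8 CPM, without overlap.

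Of these relatives 8 genes had a promoter window, and an ISRE core lay in 5 of them and a GAS in 3. Gbp2b has an ISRE core at 137 bases before its start, and Gm12250 has 2 and a GAS. Tgtp1 and Gm12185 share the GAS and ISRE arrangement of Igtp, Irgm2 and Tgtp2. 9930111J21Rik1 has an ISRE core after its start. The windows of Ifi47, 9930111J21Rik2 and Irgq hold neither.

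Gm12250, also known as Irgb10 and needed for breaking open bacteria in the cytosol, fell from 9.64 ± 1.14 to 4.22 ± 1.32 CPM (SD, n = 5; log2 fold change -1.19 ± 0.18, SE, edgeR adjusted p = 0.000242). Tgtp1 with Gm12185 (-0.93), Gbp6 with Gbp10 (-0.65), and Ifi47 with Olfr56 (-0.65) were also lower, with edgeR adjusted p of 0.00983, 0.00411 and 0.00013. Gbp11 (-0.95, edgeR adjusted p = 0.0214) lost its call without vehicle replicate 4 or JHU083 replicate 2, and Gm4951 (-0.35, edgeR adjusted p = 0.0284) without vehicle replicate 3 or 4 or JHU083 replicate 1 or 2. Transcripts of the dynamin-like GTPase genes Mx1 (-0.52) and Mx2 (-0.57) fell as well (edgeR adjusted p = 0.00919 and 0.00488). GENCODE types Mx2 and Gbp11 as polymorphic pseudogenes and Gm12250 as a processed pseudogene. Whether functional protein is made from these genes in these mice was not tested.

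The 2 higher relatives carry provisional names and lie on chromosome 11 among genes that fell. 9930111J21Rik2 (49015874 to 49051242) rose from 18.8 ± 1.03 to 29.1 ± 6.94 CPM (SD, n = 5), with all JHU083 samples above all controls (log2 fold change 0.64 ± 0.14, SE, edgeR adjusted p = 0.0028). 9930111J21Rik1 (48946150 to 48979398), in a locus with Psme2b, rose from 3.87 ± 0.869 to 6.64 ± 2.36 CPM with overlap between the groups (0.78 ± 0.24, SE, edgeR adjusted p = 0.0214). That call was lost without vehicle replicate 5 (0.64, adjusted p = 0.0501) or JHU083 replicate 2 (0.56, adjusted p = 0.0651). Read along chromosome 11, Irgm1 (-0.52), 9930111J21Rik1 (0.78), Tgtp1 (-0.93), 9930111J21Rik2 (0.64), Tgtp2 (-1.01) and Ifi47 (-0.65) lie in this order by lowest coordinate, with lower and higher loci interleaved; the Tgtp1 value is shared with Gm12185, whose lowest coordinate lies between those of Irgm1 and 9930111J21Rik1. On chromosome 3 the order Gbp5 (-0.42), Gbp7 (0.13), Gbp3 (-0.4), Gbp2b (-1.45) and Gbp2 (-1.07) likewise placed different responses side by side.

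Irgq, F830016B08Rik and Gm4070 did not pass in either direction (log2 fold changes of 0.28, 0.55 and 0.35, with edgeR adjusted p of 0.0915, 0.187 and 0.195). Each would be called higher without 1 library: Irgq (0.35 or 0.33, adjusted p = 0.0351 or 0.0383) without vehicle or JHU083 replicate 3, F830016B08Rik (0.85, adjusted p = 0.04) without vehicle replicate 3, and Gm4070 (0.51, adjusted p = 0.0174) without JHU083 replicate 3. Gvin1, a very large interferon-inducible GTPase, had 2 fragments in 1 sample and 0 in the other 9 and was not tested.

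**Figure D4:**
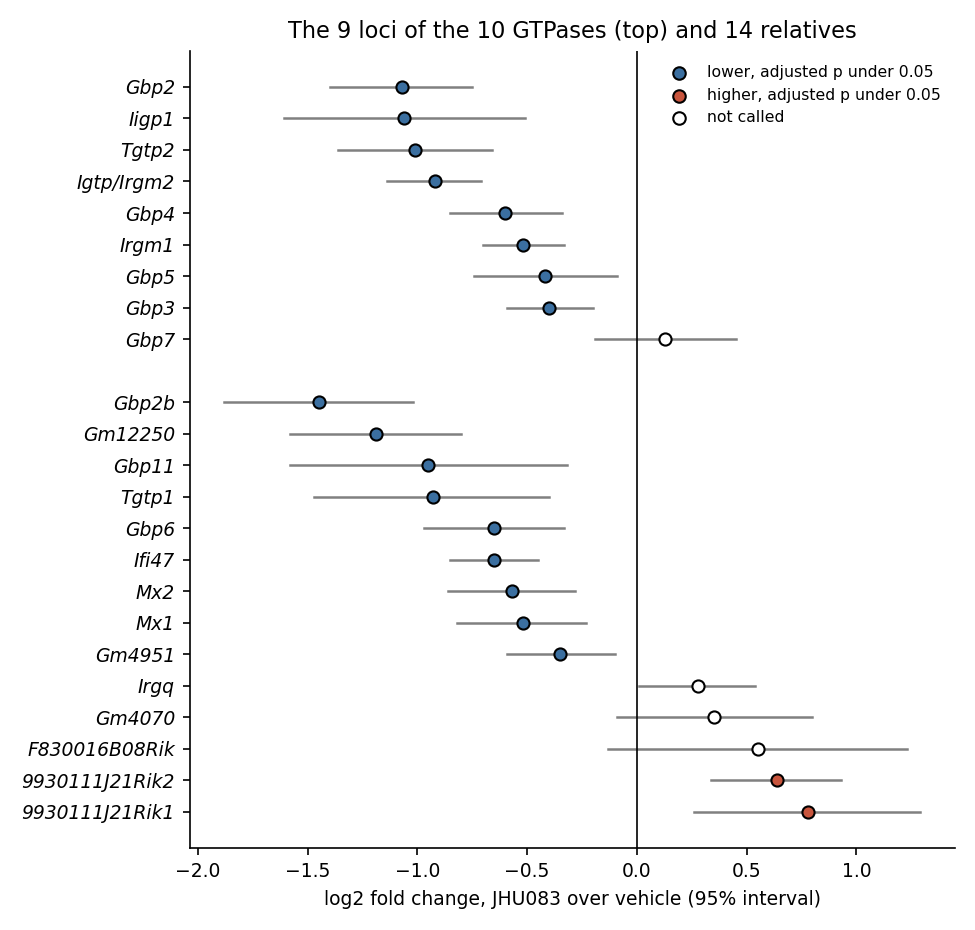
Log2 fold change of JHU083 over vehicle with its 95% interval for the 9 loci of the 10 GTPases (top) and the 14 tested loci of their relatives, 5 samples a group; filled points passed the edgeR test. Blue points run from -1.45 (Gbp2b) to -0.35 (Gm4951), and the red points are 9930111J21Rik2 (0.64) and 9930111J21Rik1 (0.78).

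Within the interferon gamma pathway, the receptor gene Ifngr1 and the kinase gene Jak1 rose, while the transcription factor gene Irf1 and the inhibitor gene Socs1 fell. Interferon gamma itself (Ifng) had 0 to 3 fragments per vehicle sample and 0 to 5 per JHU083 sample, too few to test. The receptor chain Ifngr1 rose from 101.9 ± 4.2 to 147.2 ± 12.6 CPM (SD, n = 5; log2 fold change 0.53 ± 0.07, SE, edgeR adjusted p = 0.000103), and Jak1 rose by 0.4 on the log2 scale (edgeR adjusted p = 0.00133). Ifngr2 was at 143.5 ± 4.66 and 155.3 ± 13.1 CPM (edgeR adjusted p = 0.22).

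Irf1, the factor that acts on many GTPase promoters, fell from 181.6 ± 17.1 to 95.1 ± 14.0 CPM (-0.93 ± 0.1, SE, edgeR adjusted p = 1.58e-05). Socs1, the pathway's feedback inhibitor, fell by 1.35 on the log2 scale (edgeR adjusted p = 5.17e-05), and Batf2 by 0.87 (edgeR adjusted p = 0.000185). Of the 14 tested genes of this list counted here 4 were lower and 4 higher, with a median log2 fold change of 0.02. The remaining lower gene was Ptpn6, and the other higher genes were Ptpn2 and Pias1. Pias1 (0.27, edgeR adjusted p = 0.0207) lost its call without vehicle replicate 1 or JHU083 replicate 2 or 5. In the type I interferon pathway 3 of 9 tested genes were lower (Irf7, Usp18 and Stat2, by 0.94, 0.62 and 0.45 on the log2 scale), and 1 was higher (the Ifnar2 locus, 0.27, which also lists Il10rb and Gm21970). The ligand gene Ifnb1 had at most 6 fragments in any sample and Ifna4 at most 1.

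Other genes that interferon gamma induces were lower in 18 of 24 tested cases and higher in 0, with a median of -0.59. The largest decreases were those of Ly6a (-3.09), Upp1 (-1.97) and Cxcl11 (-1.82), with edgeR adjusted p of 3.02e-06, 2.26e-05 and 9.99e-05. Genes of the type I interferon response were lower in 14 of 28 cases and higher in 0, with a median of -0.37. Isg15 (-1.24), Oas3 (-1.01) and Bst2 (-0.87) led that list, with edgeR adjusted p of 1.60e-05, 3.87e-05 and 0.000111. The 2 groups of target genes overlap in what induces them, and no test set the lists against each other.

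**Figure D5:**
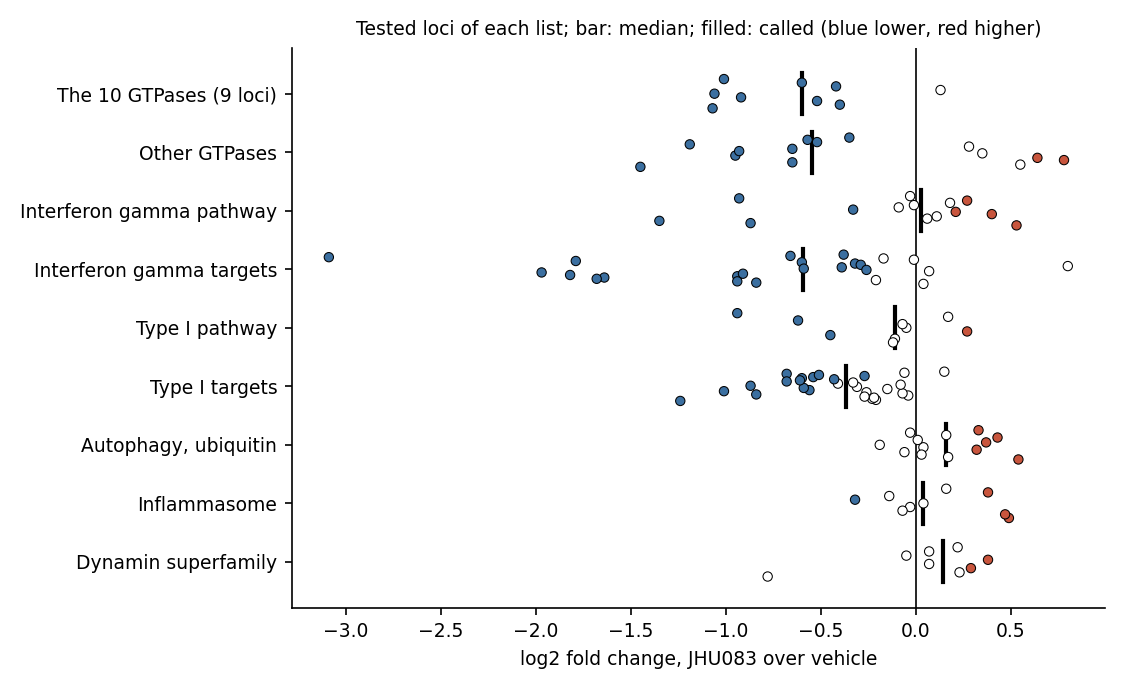
Log2 fold changes of JHU083 over vehicle for the tested loci of 9 lists, 1 point a locus; black bars are medians, and filled points passed the edgeR test (blue lower, red higher). Medians run from -0.6 for the 10 GTPases and -0.59 for the interferon gamma targets to 0.16 for the autophagy and ubiquitin genes.

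Genes that direct the GTPases to their targets were examined next. The autophagy conjugation system places GABARAP and LC3 proteins on membranes, which IRG and GBP proteins read to tell own from foreign vacuoles. Of 13 tested genes of this list 0 were lower and 5 were higher, with a median of 0.16, beside 18.3% lower and 18.4% higher among all loci. Gabarapl1 (0.54), Map1lc3a (0.43) and the ubiquitin adaptor Sqstm1 (0.37) rose most, with edgeR adjusted p of 0.000362, 0.00654 and 0.00391. Atg12 and Atg5 were the other higher genes.

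The inflammasome genes that act after guanylate-binding proteins were lower in 1 case and higher in 3 of 9. Casp4 (mouse caspase-11, the sensor of bacterial lipopolysaccharide) rose by 0.49, Ninj1, which ruptures the dying cell's membrane, by 0.47, and the DNA sensor Aim2 by 0.38 on the log2 scale (edgeR adjusted p = 0.00411, 0.00179 and 0.00394). The adaptor Pycard was lower by the test (-0.32, edgeR adjusted p = 0.0325), a call lost when vehicle replicate 1, 2 or 5 or JHU083 replicate 1, 2, 4 or 5 was left out. Casp1, Gsdmd, Nlrp3, Il1b and Il18 did not pass. Dynamin-superfamily GTPases that are not interferon-inducible were lower in 0 and higher in 2 of 8 cases, with a median of 0.15. The 2 were Atl2 (0.38) and Atl3 (0.29), edgeR adjusted p of 0.00399 and 0.0294, and Atl3 lost its call without vehicle replicate 1, 2, 4 or 5 or JHU083 replicate 1, 2 or 5.

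Markers of other cells moved with the treatment. All 10 epithelial tumour markers were lower, led by Cldn7 (-3.17), Esrp1 (-2.33) and Krt8 (-1.99; edgeR adjusted p = 3.74e-05, 0.000187 and 5.47e-05), with a summed level of 288.9 to 627.4 CPM in vehicle and 101.8 to 216.7 CPM in JHU083. Fibroblast markers were lower in 5 of 7 cases (102.9 to 225.6 CPM against 25.9 to 114.8 CPM), led by Pdgfra (-1.17), Col1a1 (-1.06) and Col3a1 (-1.01; edgeR adjusted p = 0.0101, 0.021 and 0.0152). Col1a1 lost its call without vehicle replicate 2 or JHU083 replicate 4. Endothelial markers were lower in 2 of 4 tested cases (127.0 to 213.2 CPM against 36.2 to 83.6 CPM). Most of the endothelial sum was Pecam1, which fell from 150.5 to 52.5 CPM; Egfl7 was the other lower gene, and Cdh5 (-0.49) and Kdr (-0.15) did not pass (edgeR adjusted p = 0.176 and 0.362). T and NK cell markers summed to 36.1 to 39.4 CPM in vehicle and 41.5 to 62.7 CPM in JHU083. Cd4 rose from 14.7 ± 1.37 to 31.8 ± 5.98 CPM (SD, n = 5, edgeR adjusted p = 2.07e-05) and was the only called gene of the 6 tested, whose median log2 fold change was -0.43. Gzmb (-0.91), Il2rb (-0.77), Cd5 (-0.48) and Klrb1c (-0.38) were below 0 and Cd2 (0.58) above it without passing, and Cd3d, Cd3e, Cd8a, Cd8b1, Nkg7 and Ncr1 had at most 10 fragments in any sample.

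Summed B cell markers were at 34.8 to 60.7 CPM in vehicle and at no more than 33.9 CPM in JHU083, without overlap. Most of that sum was Ighm, which fell from 42.8 to 22.3 CPM, while Cd79b was higher (0.51, edgeR adjusted p = 0.0498) and lost that call without vehicle replicate 1, 2, 4 or 5 or JHU083 replicate 3, 4 or 5. Cd79a and Ms4a1 had at most 10 fragments. The monocyte sum was higher without overlap, at 5885.4 to 7292.6 against 7691.7 to 9812.9 CPM. Chil3 rose by 2.08 and Fn1 by 0.49 on the log2 scale, and Vcan fell by 1.06 in that list (edgeR adjusted p = 0.00374, 0.00438 and 0.0129). The neutrophil genes S100a8 (-1.4) and S100a9 (-2.18) were lower and Csf3r (0.53) was higher, with edgeR adjusted p of 0.000872, 0.000196 and 0.000663. Neutrophil sums overlapped (92.7 to 102.9 CPM in vehicle and up to 145.7 CPM in JHU083), and Camp and Ly6g had at most 10 fragments. Dendritic cell markers summed to 12.4 to 17.1 CPM in vehicle and 16.2 to 33.1 CPM in JHU083. Of the 6 tested, only Cd209a passed, from 1.69 to 7.24 CPM (log2 fold change 2.09, edgeR adjusted p = 0.000363). Flt3 (0.04), Zbtb46 (0.17), Clec9a (0.4), Ccr7 (0.46) and Itgae (-0.26) did not pass. Eosinophil markers summed to 3.6 to 9.88 and 6.56 to 16.7 CPM, with Siglecf higher by 0.89 (edgeR adjusted p = 0.0115).

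After subtraction of group means, the 9 loci correlated with the epithelial sum at -0.17 to 0.65 (median 0.11) and with the fibroblast sum at 0.49 to 0.91 (median 0.56) over the 10 samples, which share library and depth. With the endothelial sum, mostly Pecam1, the correlations were -0.8 to -0.05 (median -0.36); the mean correlation with the 9 loci was -0.43 for Pecam1, -0.29 for Egfl7, 0.34 for Cdh5 and 0.37 for Kdr. Medians for the macrophage, T and NK, monocyte, neutrophil, dendritic, B cell and eosinophil sums were 0.04, 0.16, 0.29, -0.13, 0.01, 0.19 and 0.21. The part of these cells in the GTPase levels was not tested. In the samples with Rn18s-rs5 at 0 (3 vehicle and 2 JHU083), 4 of the 9 loci were lower and all 9 had a negative log2 fold change, against 4.61% of all loci called lower. With Rn18s-rs5 above 0 (2 and 3 samples), 7 were lower, against 11.7% of all loci.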

How the data were processed

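RNA-seq of sorted tumour macrophages was analysed for 5 vehicle and 5 JHU083 samples, grouped by the labels. Per the labels' protocols, poly(A) RNA was made into randomly primed libraries with a kit that does not mark strand. The submitters' processing notes name bcl2fastq 2.17.1.14, FastQC 0.11.2, TopHat2 2.1.1 and GRCm38. The counting program and annotation are not given in the sources used here.

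The authors deposited a raw count column that is not whole, so its unit was taken to be expected counts. Dividing by a step per sample (0.888 to 1.17) gave whole numbers, within 0.02, for 99.8% to 100.0% of the values, and these recovered fragment counts were used. The scaling by a factor per sample is inferred from the values. The second deposited column holds FPKM, also judged from the values. A row without a symbol (at most 0.0021% of fragments) was left out, and 1060 loci list several symbols.

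Loci passing filterByExpr were fitted with edgeR 4.0.16 (R 4.3.3; TMM scaling, quasi-likelihood F test, no covariate, Benjamini-Hochberg at 0.05 over 12500 loci), and the method was tested on simulated data. SE is the absolute log2 fold change divided by the square root of F. Log2 CPM has a prior count of 2, and ratios between loci an offset of 0.5 counts. Alternatives were DESeq2 1.42.0, limma-voom 3.58.1 with quality weights, other scalings and filters, leaving out each sample, the replicate number as a block, the deposited values rounded, samples split by Rn18s-rs5, and loci with 1 symbol. Added after the data were seen was a GC content and length correction (mgcv 1.9.3; 97.5% of tested loci had both values). Positions come from GENCODE M21 and promoters from RefSeq (GRCm38.p6).

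The 10 genes and the lists were chosen with earlier results of these data known. All 10 genes and all tested relatives are named. Of each other list up to 3 genes a direction are named by size of change, plus a few pathway genes and the other called genes of short lists. Some list genes that did not pass and the 8 loci most correlated with the members are named too. Samples of the same number in both groups did not deviate together (correlations of -0.2, 0.09, -0.57, -0.12 and -0.16), and no libraries of 1 group agreed within sampling noise. Samples 2, 4 and 5 were the most alike (chi-square per degree of freedom 5.8 to 12.7 in vehicle, 6.73 to 13.5 in JHU083). Pairs with sample 1 or 3 were at 31.5 to 105. Rn18s-rs5 splits the libraries in the same way, at 0 in vehicle samples 2, 4 and 5 and in JHU083 samples 1 and 3. What sets these libraries apart was not tested. A gene of the interferon gamma pathway list and a gene of the B cell list are not reported here and were left out of those lists' values. Protein features were not analysed here.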

Additional observations from a re-analysis of the deposited data

Results flagged for a closer look

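In groups of 5 samples, a sample was singled out when its gap to the nearest other, divided by the group's range, passed 0.71; chance does this in about 1 of 20 groups, and 46 groups were examined. Gbp3 was at a log2 CPM of 6.09 in JHU083 sample 1, with the other treated samples at 5.63 to 5.71. Gm12250 was also high in JHU083 sample 1, at 2.74 against 1.77 to 2.04. Irgm1 was at 6.02 in vehicle sample 3, below the 6.16 to 6.21 of the other controls. The relative 9930111J21Rik1 was at 1.32 in vehicle sample 5, with the other controls at 2.07 to 2.23.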

How the results depend on the processing

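The count of 8 lower loci among the 9 held under DESeq2, limma-voom, library-size and RLE scaling, no filter or a filter of 1 CPM in 5 samples, rounded deposited values, leaving out Rn18s-rs5 and Gm42418, the replicate block, and the GC content and length correction with and without the block. It was 7 to 8 with 1 replicate left out, 4 in the samples with Rn18s-rs5 at 0 and 7 in the others. For the relatives 9 lower loci became 7 to 9 with 1 replicate left out, 8 with the replicate block, 2 with Rn18s-rs5 at 0 and 4 with it above 0. Their 2 higher loci became 5 with limma-voom, 3 with the GC content and length correction (with or without the block), 1 with the replicate block, 1 to 4 with 1 replicate left out (4 without vehicle or JHU083 replicate 3, 1 without vehicle replicate 5 or JHU083 replicate 2) and 0 with Rn18s-rs5 at 0. Those splits hold 5 samples each; the cause of the lower counts beyond fewer samples was not tested. With the replicate block, which the numbers do not support as a pairing, 1757 loci were lower and 1612 higher. Library-size scaling gave 3141 lower and 1564 higher, with a median log2 fold change over all loci of -0.07.

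The sign of Gbp7 turned with Rn18s-rs5 at 0 (-0.04). Bbs10, near 0 throughout, turned to -0.05 with library-size scaling, -0.01 with the block, -0.02, -0.09 and -0.07 without vehicle replicate 3, JHU083 replicate 1 and JHU083 replicate 5 (-0.09 to 0.17 over all single omissions), -0.13 with Rn18s-rs5 at 0 and -0.07 with the GC correction, with or without the block. Gm12346 was 0.04 without JHU083 replicate 3 (-0.39 to 0.04 over all single omissions). Of the other values of the 9 loci under an alternative, 198 kept direction and call, 13 lost the call and 1 gained it. Tgtp2 in CPM rests on 99 to 350 fragments, the lowest depth of the 9 loci.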
